A study of Bos taurus with 6 samples.

Results

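The forkhead box (FOX) and SRY-related HMG box (SOX) transcription factor families were followed in methylated DNA from bovine dermal fibroblasts. Members were the sequential 3 kb windows on chromosomes 1 to 29 whose deposited gene label reads FOX with a letter and a number, or SOX with a number. This gave 971 windows of 46 genes, 613 windows of 34 FOX genes and 358 windows of 12 SOX genes, out of 335024 labelled windows on these chromosomes and 902984 windows in all. The rule used labels only and no measured value, but it was chosen with earlier results of these data known. All 46 symbols are also bovine symbols in RefSeq (ARS-UCD2.0), which lists 63 symbols of these forms. SOX2, SOX9, SOX11, SOX15, SOX21, FOXC1, FOXD1, FOXF2 and FOXQ1 were not analysed here.

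The cultures came from 3 Holstein heifers, each sampled at 5 and again at 16 months of age, with 1 MIRA-Seq library per animal and age (n = 3 per age). All cultures were at passage 5, received no treatment and had seen no LPS. Per the methods, the animals were chosen as mid-level responders to LPS, so they do not span the range of responses. In MIRA-Seq, methyl-binding proteins pull sonicated DNA down, and the reads of a window rise both with its methylation and with its number of CpG sites. Each culture is a population of cells, so methylation in fewer cells and methylation at fewer sites of each cell cannot be told apart. The files hold no expression values, and the fibroblast label was therefore not checked against marker genes.

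FOX proteins bind DNA through a winged-helix forkhead domain and SOX proteins through an HMG box that bends the double helix. Both families set cell identity in the embryo, and a given tissue uses a subset of them. Genes for such developmental regulators often start in CpG islands, stretches rich in CpG sites that are usually free of methylation, while methylation inside a transcribed gene is common. SOX5, SOX6 and SOX13 form group D of the SOX family, SOX8 and SOX10 belong to group E with SOX9, and SOX7, SOX17 and SOX18 make up group F.

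Levels are given as RPKM, the reads of a window per kilobase and per M matched reads of the library, and the level of a gene is the mean over its windows. Where values are given for each library, those of animals 1, 2 and 3 follow in this order within an age. The windows of a library held 19.9 to 43.6 M reads, of which 0.0822% to 0.127% fell in FOX and SOX windows. This share was lower in both libraries of animal 3 (0.0822% and 0.0921%) than in the other 4 (0.122% to 0.127%). Between 6.70% and 32.4% of all windows of a library had 0 reads, and 3.81% to 27.1% of FOX and SOX windows. Libraries with few reads had more empty windows, but not strictly so, since the 5-month library of animal 3 had 37.3 M window reads and 16.8% empty windows.

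The families stood at different levels. The median window of a FOX gene was at 0.0861 ± 0.0283 RPKM (SD, n = 6) and that of a SOX gene at 0.0143 ± 0.00765 RPKM, while the median of all labelled windows was 0.0415 ± 0.0163 RPKM. The FOX median was 0.0616, 0.103 and 0.0852 RPKM at 5 months and 0.0978, 0.0461 and 0.123 RPKM at 16 months. The SOX medians of the same libraries were 0.0103, 0.0257 and 0.00532 RPKM at 5 months and 0.0147, 0.00922 and 0.0205 RPKM at 16 months. Each library thus had a lower SOX than FOX median. A few long genes set these medians, because FOXN3 alone has 137 of the FOX windows and SOX5 and SOX6 have 317 of the SOX windows between them. Without FOXN3 the FOX median was 0.0518 ± 0.0200 RPKM, and without SOX5 and SOX6 the SOX median was 0.0647 ± 0.0229 RPKM, so the order of the families turned. Counted by gene, with each gene given equal weight, the median was 0.153 RPKM for the FOX genes, 0.0528 RPKM for the SOX genes and 0.0856 RPKM for all 24046 labelled gene loci.

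A gate of 0.5 RPKM, taken from the methods, was passed by 13 of the 46 genes (28.3%), 10 of them FOX and 3 SOX, against 17.2% of all labelled loci. SOX8, a neural crest and testis factor, had the highest level of the 46, at 1.39 ± 0.569 RPKM (SD, n = 6). Its level was 1.45, 1.71 and 0.745 RPKM at 5 months and 1.72, 2.07 and 0.664 RPKM at 16 months. FOXK1, a widely expressed regulator of metabolism and autophagy, followed with 1.44, 1.63 and 0.843 RPKM at 5 months and 1.57, 1.71 and 0.742 RPKM at 16 months. Both genes were lowest in the libraries of animal 3 and overlapped between the ages. FOXS1, a gene of neural crest and vessel-associated cells that fills a single window, stood at 1.34, 1.33 and 0.671 RPKM at 5 months and 1.57, 1.69 and 0.752 RPKM at 16 months. SOX13 had 1.34, 1.37 and 0.674 RPKM at 5 months and 1.64, 1.60 and 0.672 RPKM at 16 months. In FOXJ1, the master gene of motile cilia, the values were 1.24, 1.19 and 0.697 RPKM at 5 months and 1.36, 1.47 and 0.578 RPKM at 16 months. The ranges of these 5 genes overlapped. Within libraries, SOX8 and FOXK1 were above FOXJ1 in each of the 6, while SOX8 and FOXK1 changed places between libraries.

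The next 5 genes were FOXM1, which drives the genes of cell division, at 0.960 ± 0.283 RPKM, FOXF1 of the lung and gut mesenchyme at 0.820 ± 0.328 RPKM, FOXI1 of the inner ear and kidney at 0.778 ± 0.313 RPKM, FOXP4 at 0.729 ± 0.218 RPKM and FOXN3, a checkpoint repressor, at 0.697 ± 0.126 RPKM (SD, n = 6 each). FOXK2 (0.696 ± 0.107 RPKM), SOX10 of melanocytes and glia (0.520 ± 0.152 RPKM) and FOXE1 of the thyroid (0.506 ± 0.187 RPKM) completed the 13. All 13 genes had both libraries of animal 3 below the other 4 libraries, as did 91.6% of the 4139 labelled loci above 0.5 RPKM, so this holds for the high genes of the series at large.

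At the other end, SOX4, a group C factor of progenitor cells, had 8 reads in its 2 windows over all 6 libraries. Its level was 0.00513, 0.00644 and 0 RPKM at 5 months and 0.00978, 0.00461 and 0 RPKM at 16 months. The 0 reads of animal 3 allow up to 0.00799 and 0.0103 RPKM, the level of 3 reads, so a difference between the animals was not detectable at this depth. SOX6 (0.0183 ± 0.00723 RPKM), SOX17 of endoderm and endothelium (0.0194 ± 0.0119 RPKM), SOX14 (0.0204 ± 0.0108 RPKM) and FOXN2 (0.0226 ± 0.00995 RPKM) were next, and their ranges overlapped. The 20 genes at 0.1 RPKM or below included regulators known from other tissues, such as FOXA1 (0.0612 ± 0.0352 RPKM) and FOXA2 (0.0287 ± 0.0150 RPKM) of endoderm, FOXL2 of the ovary (0.0455 ± 0.0256 RPKM) and SOX1 of neural progenitors (0.0267 ± 0.00964 RPKM). SOX18, an endothelial group F factor in a single window, was higher, with 0.431, 0.483 and 0.431 RPKM at 5 months and 0.543, 0.618 and 0.287 RPKM at 16 months. Group F thus ran from 0.0194 RPKM in SOX17 over 0.143 ± 0.108 RPKM in SOX7 to 0.465 ± 0.113 RPKM in SOX18, and the libraries of SOX18 and SOX17 did not overlap.

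Between these ends lay genes of many roles. FOXO1 had 0.258, 0.255 and 0.228 RPKM at 5 months and 0.239, 0.206 and 0.243 RPKM at 16 months. Its spread of 0.0189 RPKM was small beside its mean of 0.238 RPKM, and animal 3 was not apart. FOXO3 was lower, with 0.134, 0.151 and 0.0957 RPKM at 5 months and 0.135, 0.115 and 0.132 RPKM at 16 months, and no library of it reached the lowest library of FOXO1. Of the FOXN genes, FOXN4 (0.469 ± 0.120 RPKM) and FOXN1 (0.413 ± 0.145 RPKM) overlapped each other and lay above FOXN2 in every library. FOXA3 stood at 0.332 ± 0.0811 RPKM, above FOXA1 and FOXA2 in all 6 libraries, and 96.9% of its reads fell in its last window. Among the genes of a single window, FOXB1 (0.107 ± 0.0415 RPKM) and FOXB2 (0.0417 ± 0.0164 RPKM), brain and spinal cord factors, had 96 and 37 reads in all.

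**Figure D1:**
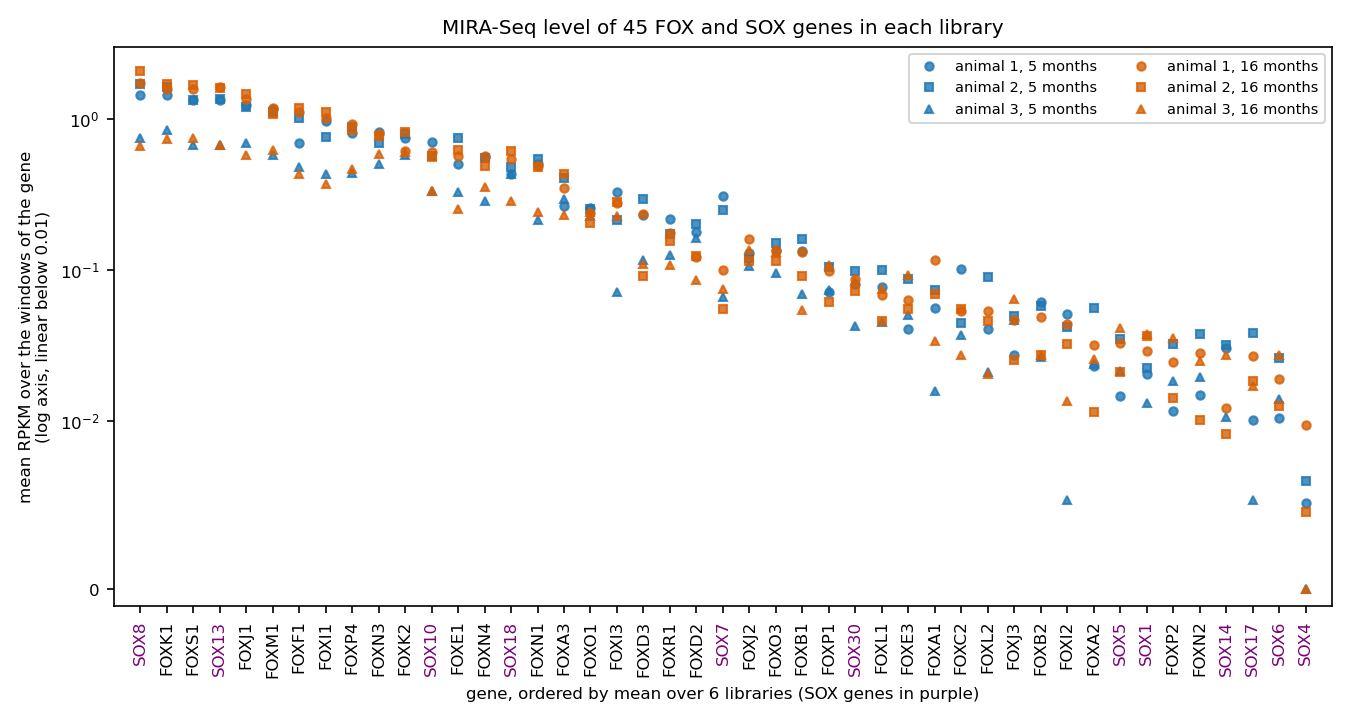
Mean RPKM of 45 FOX and SOX genes (x axis, ordered by their means) in each of the 6 libraries (points, colour for age and shape for animal) on a log axis that is linear below 0.01 RPKM. The genes run from SOX8 at 1.39 RPKM to SOX4 at 0.00433 RPKM, and the triangles of animal 3 lie lowest in all 13 genes above 0.5 RPKM.

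The long genes, 5 with 100 or more windows each, hold most of the windows, and FOXN3 stood apart from the others in level. FOXN3 on chromosome 10 (101891601 to 102302600, UMD v3.1, minus strand) had 79 of its 137 windows above 0.5 RPKM. It took 41.7% of all FOX and SOX reads, ahead of FOXK1 with 13.9% and FOXK2 with 7.84%. Its level was 0.823, 0.698 and 0.508 RPKM at 5 months and 0.793, 0.778 and 0.585 RPKM at 16 months. Among the 501 labelled loci of this length, whose median was 0.0514 RPKM, 18 were higher than FOXN3. FOXP1 on chromosome 22, a regulator of B cells, heart and brain, was at 0.0865 ± 0.0196 RPKM with 0 of 132 windows above 0.5 RPKM, at the 70.1st percentile of these loci.

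FOXP2, the gene tied to speech, was at 0.0229 ± 0.00973 RPKM over 103 windows, SOX5 at 0.0278 ± 0.0103 RPKM over 156 windows and SOX6 at 0.0183 ± 0.00723 RPKM over 161 windows. SOX5 and SOX6 act with SOX9 in cartilage formation. SOX6 had 0.0105, 0.0262 and 0.0140 RPKM at 5 months and 0.0191, 0.0125 and 0.0276 RPKM at 16 months, and SOX5 0.0147, 0.0351 and 0.0214 RPKM against 0.0329, 0.0210 and 0.0416 RPKM. SOX5 was above SOX6 in each library, but the ages overlapped in both genes. FOXP2, SOX5 and SOX6 stood at the 10.4th, 18.8th and 3.39th percentile of the long loci. In all 6 libraries FOXN3 exceeded FOXP1 and each of the other long genes, with no overlap. The lowest FOXN3 library, at 0.508 RPKM, was above the highest FOXP1 library, at 0.107 RPKM.

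**Figure D2:**
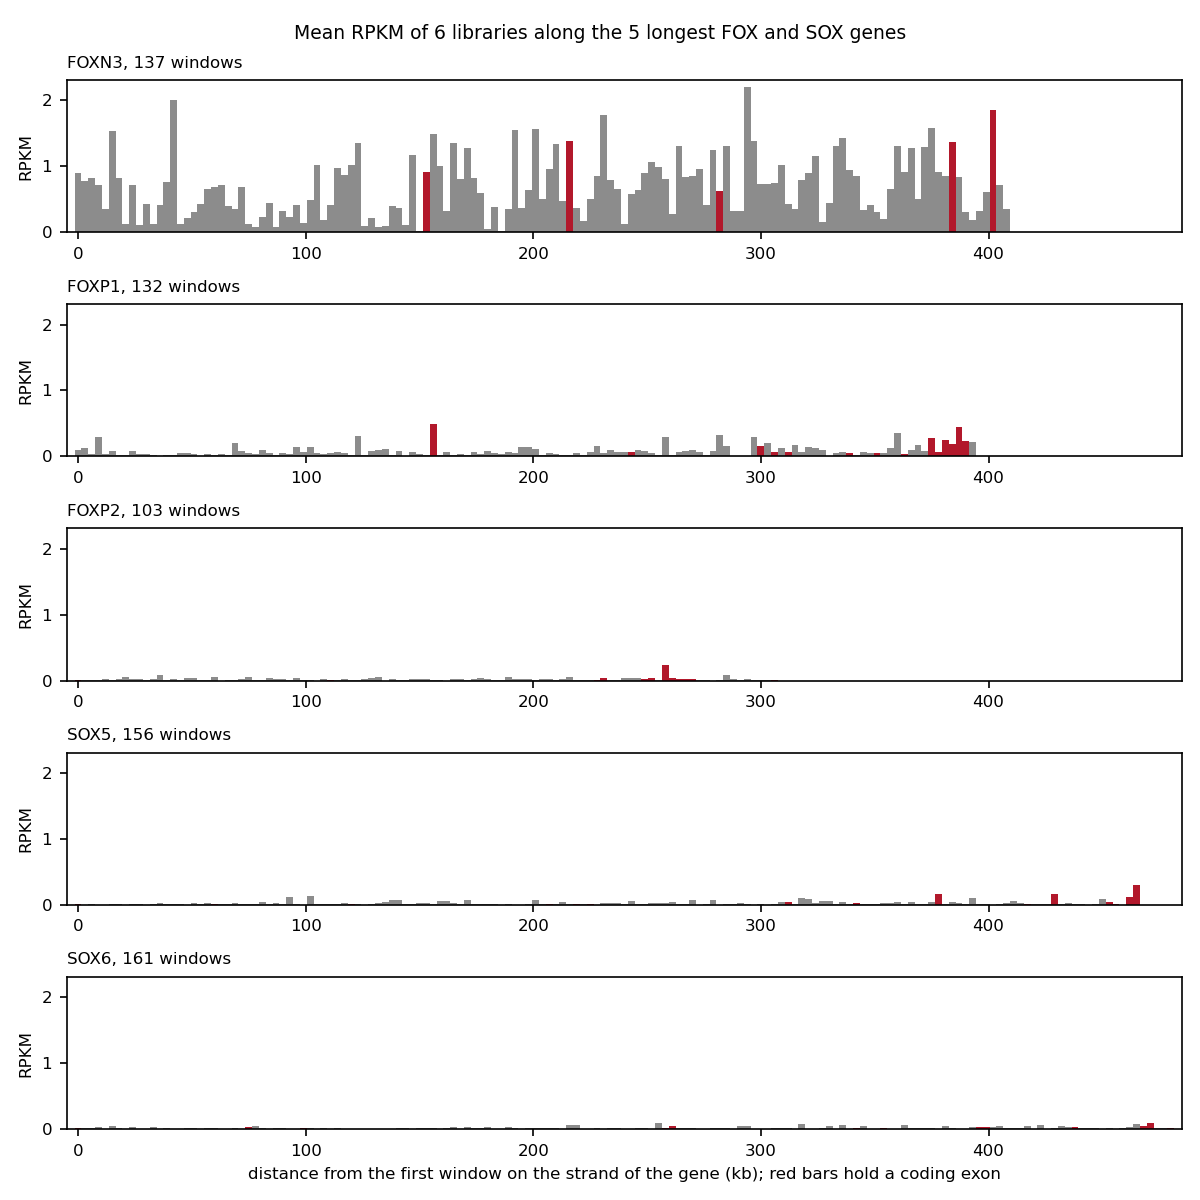
Mean RPKM over 6 libraries (y axis, the same scale in each panel) of every 3 kb window against its distance in kb from the first window on the strand of the gene, with windows that hold a coding exon in red. FOXN3 reaches 2.20 RPKM and has signal along its whole length, while FOXP1, FOXP2, SOX5 and SOX6 stay below 0.5 RPKM in every window.

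Of all 971 FOX and SOX windows, 238 (24.5%) had at least 1 count per M (CPM) in at least 3 libraries, against 18.1% of labelled windows. FOXN3 supplied 115 of them. Without this gene 123 of 834 windows (14.7%) passed, below the share of labelled windows. In SOX6 0 of 161 windows passed, in SOX5 1 of 156 and in FOXP2 1 of 103. For 17 genes no window reached this level.

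Windows that carry a coding exon, leaving out the first window of each gene, were higher than those without. The median coding window of the FOX and SOX genes was at 0.0971 RPKM (n = 145 windows, 41.4% passing the CPM filter) and the median non-coding window at 0.0348 RPKM (n = 780, 21.0% passing). All labelled windows showed the same order, with 0.0699 against 0.0354 RPKM and 32.0% against 11.6% passing. The gap was wide in the FOXO genes, which mediate the response to insulin and stress. FOXO1 had 1.05 RPKM in its 2 coding windows past the first and 0.159 RPKM in its 29 non-coding ones, and FOXO3 had 0.963 against 0.0564 RPKM. In FOXN3 the medians were 1.37 and 0.644 RPKM, so its median non-coding window lay above the median coding window of the families. Of the 20 genes that hold both kinds of window, 17 had their highest window, with the first window included, over a coding exon. FOXK2, FOXN2 and FOXN3 were the exceptions. The same count over all labelled genes was not made, so it cannot be read as a trait of the families.

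The highest window of the families lay in a non-coding stretch of FOXK2, a close relative of FOXK1, on chromosome 19 (50668875 to 50671874, window 18 of 26). It had 5.71, 8.37 and 4.21 RPKM at 5 months and 4.49, 10.9 and 4.32 RPKM at 16 months. The neighbouring window (50671875 to 50674874) stood at 3.60 ± 0.501 RPKM (SD, n = 6). Together they gave FOXK2 its rank, since this gene had 5 windows above 0.5 RPKM in all and its highest window held 33.9% of its reads. The highest depth at a single base was 0.351 and 0.332 per read counted in these windows, while the median of the passing FOX and SOX windows was 0.199, and the 90th percentile 0.332. The part of stacked reads in the high values of FOXK2 was not tested.

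In FOXK1 the signal was spread, with 20 of 24 windows above 0.5 RPKM and highest depths of 0.077 to 0.113 per read in its top windows. The last 2 windows of the gene on chromosome 25 (39759101 to 39765100), which hold coding exons 10 and 11 of the labels, had 3.80 ± 1.63 and 3.64 ± 1.55 RPKM. A second rise in the middle of the gene (39786101 to 39795100) covered 3 windows at 2.15 to 2.64 RPKM. FOXN3 windows 99 (102005601 to 102008600, 2.20 ± 0.620 RPKM) and 15 (102257601 to 102260600, 2.01 ± 0.456 RPKM) and the second window of SOX8 (787801 to 790800 on chromosome 25, 2.19 ± 0.917 RPKM) completed the 10 highest windows.

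The cluster of FOXF1, FOXC2 and FOXL1 on chromosome 18 held neighbours at different levels. These genes act in mesenchyme, vessels and gut connective tissue. The first window of FOXF1 starts at 12377798 and was at 0.218 ± 0.0737 RPKM, while the second was at 1.42 ± 0.599 RPKM. FOXC2, 45 kb further along, filled a single window at 0.0536 ± 0.0262 RPKM, with 0.103, 0.0451 and 0.0373 RPKM at 5 months and 0.0538, 0.0553 and 0.0274 RPKM at 16 months. The unlabelled window just after FOXC2 was higher, at 0.283 ± 0.163 RPKM. The 2 windows of FOXL1 stood at 0.0485 ± 0.0199 and 0.0887 ± 0.0318 RPKM. MTHFSD, the gene between FOXF1 and FOXC2 and no member of either family, reached 1.66 ± 0.438 RPKM. The second window of FOXF1 was above every FOXC2 and FOXL1 window in each library.

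The first window on the strand of a gene, which holds its start as far as 3 kb resolve it, was compared with its other windows in the 38 member genes that had enough reads. Counts were summed by animal, and calls needed an FDR below 0.1 with a difference of at least 2-fold (edgeR's quasi-likelihood test over all 19184 genes tested). The first window was lower in 18 of the 38 genes (47.4%) and higher in 6 (15.8%), while over all genes tested 48.2% were called lower and 14.4% higher. The families were thus close to the background. The median log2 difference was -0.94 over the 38 genes and -0.93 over all genes. Of the FOX genes 14 of 28 were lower and 4 higher, and of the SOX genes 4 of 10 were lower and 2 higher. Among the SOX genes called lower, the first windows of SOX5, SOX17 and SOX1 held 9, 10 and 15 reads over all libraries, and that of SOX13 held 197. The calls of SOX17 and SOX1 depended on the processing, as they were lost in 6 and 8 alternatives.

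FOXA3, an endoderm factor, had the widest gap of the genes called lower. Its first window was at 0.0129 ± 0.00741 RPKM and its other windows at 0.492 ± 0.121 RPKM (log2 difference -5.18, SE 0.42). FOXO1 came next, with 0, 0.0129 and 0.0106 RPKM in its first window at 5 months, 0.0147, 0.0092 and 0.0205 RPKM at 16 months, and 0.213 to 0.266 RPKM over the rest of the gene (log2 difference -4.33, SE 0.39, adjusted p = 5.32e-07). The ranges of both parts of FOXO1 did not overlap. The first windows of FOXA3 and FOXO1 held only 12 and 11 reads in all, and no library of either was above the level of 3 reads. The depth thus limits how exactly the size and order of these gaps can be given. FOXI3 of hair and teeth (-3.51, SE 0.38), FOXR1 (-2.84, SE 0.43), FOXN4 of the retina (-2.75, SE 0.42), SOX13 (-2.69, SE 0.27), FOXF1 (-2.64, SE 0.32), FOXM1 (-2.47, SE 0.32) and FOXD2 (-2.41, SE 0.34) followed on the log2 scale. SOX13 and FOXM1 thus joined a first window of 0.211 ± 0.0845 and 0.218 ± 0.107 RPKM to a body of 1.47 ± 0.533 and 1.21 ± 0.373 RPKM. In SOX8 the first window was already at 0.892 ± 0.395 RPKM, and its log2 difference of -0.96 (SE 0.22) stayed under 2-fold.

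The first window was higher in SOX7, SOX30, FOXD3, FOXI2, FOXJ3 and FOXN1. SOX7, an endothelial group F factor, had 0.246 ± 0.206 RPKM in its first window and 0.0392 ± 0.0170 RPKM in its second (log2 difference 2.47, SE 0.45). SOX30, a gene of male germ cells, had 0.256 ± 0.0952 against 0.0652 ± 0.0156 RPKM (1.89, SE 0.32), and FOXD3 of the neural crest 0.283 ± 0.151 against 0.0782 ± 0.0364 RPKM (1.71, SE 0.34). FOXI2 (1.69, SE 0.55), FOXJ3 (1.66, SE 0.33) and FOXN1, the gene of thymus and hair epithelium (1.18, SE 0.25), completed the group. With the window before the gene added to its start, the calls of FOXD3, FOXJ3 and FOXN1 were lost. FOXN3 and FOXK1 had starts close to their bodies, with log2 differences of 0.33 (SE 0.14) and -0.25 (SE 0.18).

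**Figure D3:**
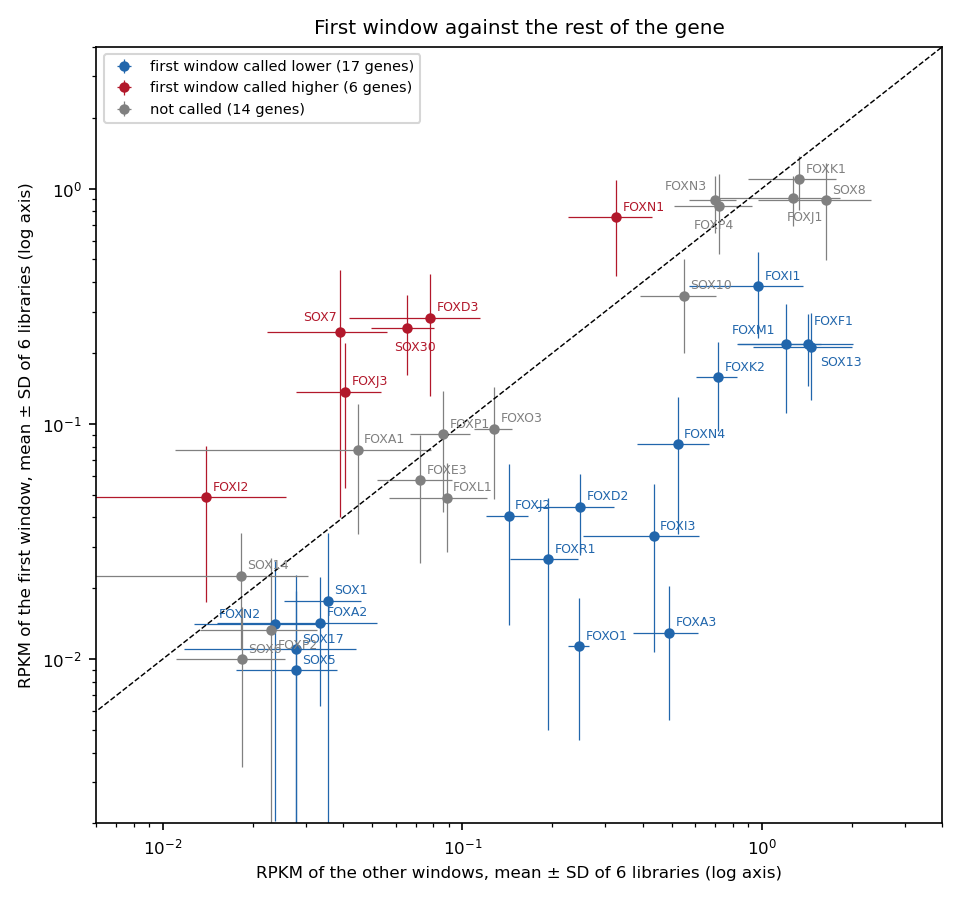
RPKM of the first window (y axis) against that of the other windows (x axis) for 37 FOX and SOX genes on log axes, as mean ± SD of 6 libraries, with the dashed line marking equal levels. The 17 genes shown as called lower lie under the line, FOXA3 and FOXO1 farthest from it, and the 6 called higher lie above it.

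Around the first window, FOX genes had a median of 0.0739 ± 0.0173 RPKM in the first window and 0.0425 ± 0.0179 RPKM in the window before it, and SOX genes 0.0928 ± 0.0443 and 0.0339 ± 0.0122 RPKM. All labelled genes had 0.0471 ± 0.0169 and 0.0400 ± 0.0182 RPKM. The spreads of the families and of all genes overlapped at both places.

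The comparison of 5-month with 16-month cultures, paired by animal, asked whether methylation of these genes differed with the age of the heifer. The quasi-likelihood test of edgeR called 0 of the 238 FOX and SOX windows tested, while over all windows 194 of 104658 (0.185%) were called at an FDR below 0.1 and 2-fold. At an unadjusted p under 0.05 there were 16 member windows (6.72%), against 7.10% of all windows tested. DESeq2 gave 0 calls among the member windows, 3 of which were under 0.05, and only 15 calls over all windows. The median log2 difference, 5 minus 16 months, was -0.06 in member windows and 0.02 in all windows, and 90 member windows (37.8%) were higher at 5 months, against 52.6% of all. Under DESeq2 size factors, library size alone and factors from all windows the member median stayed below 0, at -0.07, -0.04 and -0.03, beside 0.01, 0.03 and 0.05 in all windows. Without the CPM filter (969 member windows) the contrast was narrower, with medians of -0.13 and -0.11 and 39.1% against 42.4% higher at 5 months. FOXN3 had 115 of the windows, with a median log2 difference of -0.10, and among the other 123 the median was -0.03.

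Of the 10 windows with the lowest p, 7 lay in FOXN3, which had 115 of the 238 windows tested. An unadjusted p under 0.05 (edgeR) was found in 9 of these 115, and in 7.10% of all windows tested. The CPM of the age comparison were scaled between libraries (TMM) to the reads in the windows or genes tested. They thus differ from the CPM of the filter, which were taken over all window reads. Window 58 of FOXN3 (chromosome 10, 102128601 to 102131600) had 4.09, 3.81 and 8.79 CPM at 5 months and 6.78, 14.6 and 6.30 CPM at 16 months. It was lower at 5 months in animals 1 and 2 and higher in animal 3, and the log2 difference was -0.73 (SE 0.23, adjusted p = 0.224). In window 136 of FOXN3 (101894601 to 101897600) all 3 animals were lower at 5 months, with 2.62, 2.88 and 4.16 CPM against 4.22, 5.30 and 5.59 CPM. The ages did not overlap, and the log2 difference was -0.66 (SE 0.21, adjusted p = 0.245). Window 50 (102152601 to 102155600) went the other way (log2 difference 0.64, SE 0.21, adjusted p = 0.252). It had 8.92, 7.79 and 6.97 CPM at 5 months and 4.82, 5.50 and 4.88 CPM at 16 months. The ages of window 50 did not overlap on this scaled CPM, but they did per M window reads. Animal 3 had 161 reads of 37.3 M at 5 months, and animal 2 had 111 of 21.5 M at 16 months. Fitted differences of both signs thus occurred among these FOXN3 windows, and none was called. The windows were picked by their p, so agreement between animals or a lack of overlap in them is no separate evidence of an age difference.

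The other FOXN3 windows were 96 (102014601 to 102017600, log2 difference -0.51), 67 (102101601 to 102104600, -0.48), 11 (102269601 to 102272600, -0.56) and 14 (102260601 to 102263600, -0.44), with an SE of 0.21 to 0.26. On the scaled CPM each of them was lower at 5 months in all 3 animals. The second window of FOXI3 (47481685 to 47484684 on chromosome 11) had a log2 difference of -0.64 (SE 0.27), but was 0.12 higher at 5 months in animal 1. Window 10 of FOXK2 (50692875 to 50695874 on chromosome 19, 0.55, SE 0.25) and window 121 of FOXP1 (30769967 to 30772966 on chromosome 22, 0.62, SE 0.29) were higher at 5 months in all 3 animals. Their adjusted p values were 0.599 and 0.642 by edgeR's quasi-likelihood test.

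**Figure D4:**
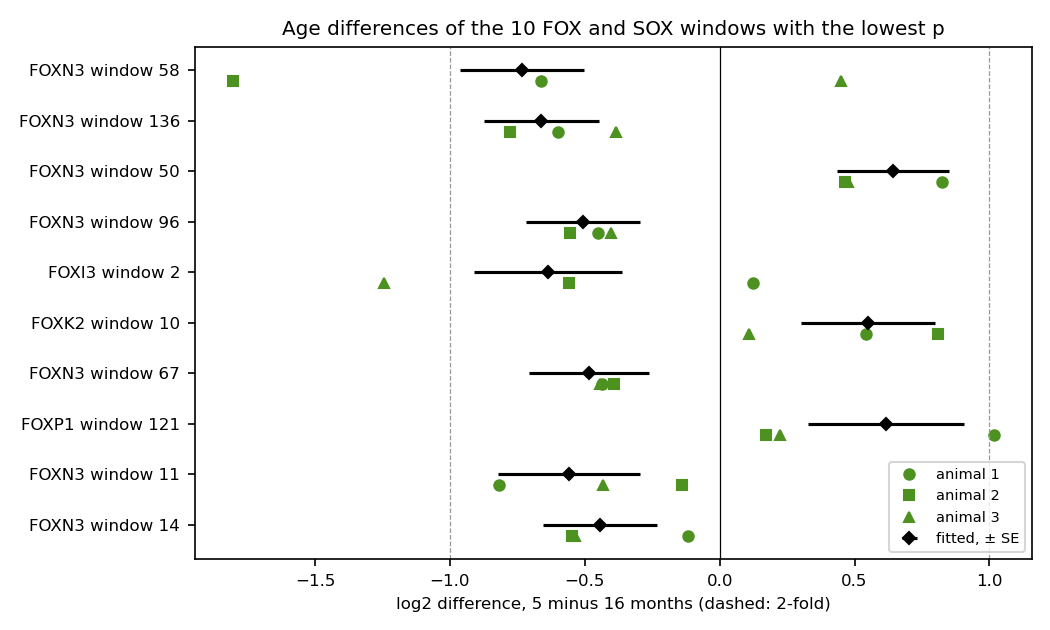
Log2 differences, 5 minus 16 months, of the 10 FOX and SOX windows with the lowest p, as fitted value ± SE (diamonds) and in each animal (green symbols), with dashed lines at 2-fold. Every fitted value lies within 2-fold, and animal 3 is on the other side of 0 from animals 1 and 2 in FOXN3 window 58.

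Leaving out animal 3 gave 2 calls, which were looked at after their values were seen. FOXN3 window 58 then had a log2 difference of -1.34 (adjusted p = 1.3e-05, edgeR), while without animal 2 it was -0.10, and over the other alternatives its adjusted p ran from 0.0521 to 1. The first window of SOX7 (8400587 to 8403586 on chromosome 8), which misses the CPM filter over 6 libraries, had a log2 difference of 1.81 (adjusted p = 0.00625, edgeR). Its reads were 54, 71 and 17 at 5 months and 37, 10 and 15 at 16 months. On the RPKM scale these were 0.554, 0.457 and 0.0905 at 5 months and 0.181, 0.0922 and 0.103 at 16 months, so animals 1 and 2 were higher at 5 months and animal 3 was not. With a filter of 0.5 CPM and all 3 animals its log2 difference was 1.33 (adjusted p = 0.274, edgeR), and with no filter it was 1.31 (adjusted p = 1). Without animal 3 the whole series had 1278 calls.

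Summed over all windows of a gene, 31 member genes could be tested, and 0 were called, with 0 at an unadjusted p under 0.05 (edgeR; DESeq2 also gave 0 and 0). Over all 18016 genes 2 were called (0.0111%) and 0.616% had an unadjusted p under 0.05. SOX5 had the lowest p of the members, with a log2 difference of -0.44 (SE 0.26). In CPM scaled to the reads of the genes tested, SOX5 had 30.2, 66.7 and 60.0 at 5 months and 63.4, 49.4 and 95.6 at 16 months. Animals 1 and 3 were thus lower at 5 months and animal 2 higher. Without animal 2 the log2 difference was -0.86 in SOX5 (adjusted p = 0.0109), -0.80 in FOXP2 (adjusted p = 0.0286) and -0.73 in SOX6 (adjusted p = 0.0314), each under 2-fold and so not called, and 272 genes of the series were called. Without animal 1 or animal 3 the values of these genes lay between -0.31 and 0.03. FOXD2 (0.75, SE 0.52) and FOXD3 (0.58, SE 0.49) were higher at 5 months in all 3 animals, on 261 and 330 reads in all. FOXI3 (-0.56, SE 0.46), FOXP2 (-0.26, SE 0.29), SOX6 (-0.24, SE 0.28), FOXF1 (-0.24, SE 0.30), FOXS1 (-0.22, SE 0.33), FOXR1 (0.25, SE 0.37) and SOX13 (-0.15, SE 0.25) completed the 10 genes of lowest p. The interval of 2 SE around each of these values includes 0.

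The age differences of the long low genes moved with the share of empty windows in a library. The 5-month to 16-month log2 ratio of RPKM was -1.16, 0.74 and -0.96 in animals 1, 2 and 3 for SOX5, -0.86, 1.06 and -0.98 for SOX6 and -1.08, 1.18 and -0.94 for FOXP2. FOXP1 had -0.46, 0.77 and -0.54. In each animal the library with the larger share of empty windows had the lower level of these genes, and these shares were 32.4% at 5 months against 7.80% at 16 months in animal 1, 6.70% against 25.5% in animal 2 and 16.8% against 9.25% in animal 3. Of the 20 member genes at 0.1 RPKM or below 11 (55.0%) had this pattern, as did 72.1% of all labelled loci at that level. It was rarer above 0.5 RPKM, with 2 of 13 member genes and 2.75% of all loci. FOXK1 had ratios of -0.13, -0.07 and 0.18 and SOX8 of -0.25, -0.28 and 0.17. The part of the empty windows in the ratios was not tested.

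**Figure D5:**
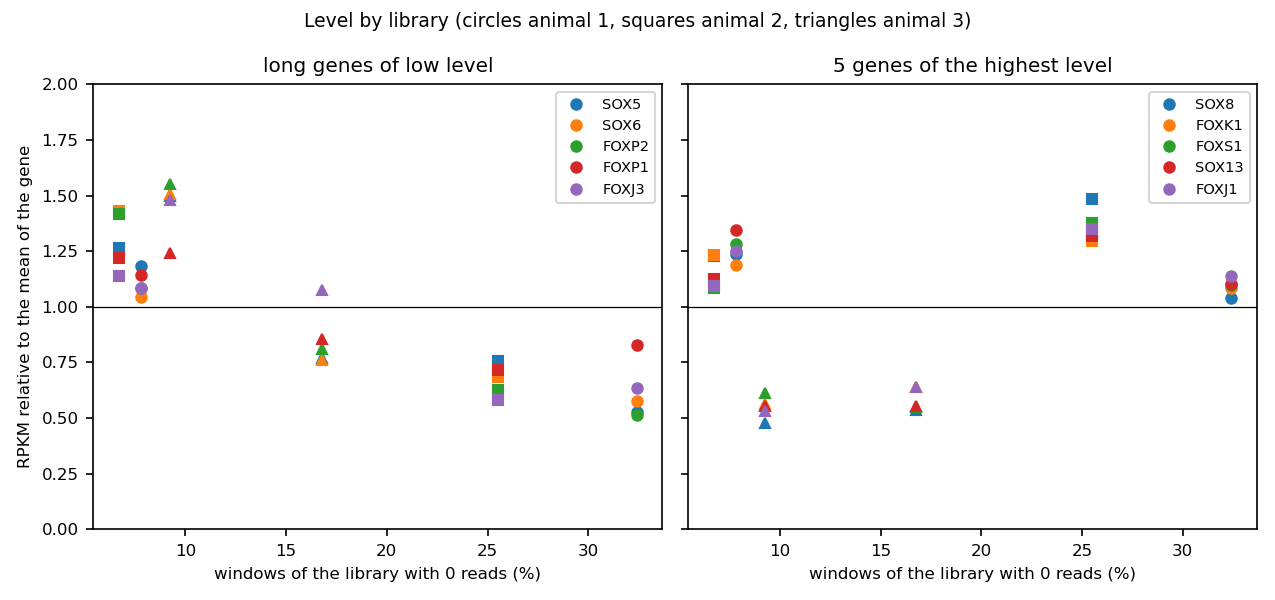
RPKM of 5 long or low genes (left) and of the 5 highest genes (right) in each library, divided by the mean of the gene over 6 libraries, against the percentage of windows of the library with 0 reads. On the left the libraries with 25.5% and 32.4% empty windows lie below the mean of each gene, and on the right the low points are those of animal 3.

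Related genes outside the families were counted with the same tests. Among 15 other HMG-box genes, 69 of 501 windows passed the CPM filter (13.8%) and 0 were called by age, with 2 at an unadjusted p under 0.05. Among 6 genes of the RFX family, which also carry a winged helix, 27 of 197 windows passed (13.7%) and 0 were called, with 2 under 0.05 (edgeR). In the first window 8 of 14 HMG-box genes were lower and 2 higher, and 4 of 6 RFX genes were lower and 0 higher.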

How the data were processed

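MIRA-Seq libraries of 6 fibroblast cultures, from 3 animals at 2 ages, were analysed. Per the labels and methods, the authors filtered and trimmed reads, aligned them to UMD v3.1 with NextGENe and deposited raw read counts of 3 kb windows, with gene labels. The deposited highest coverage of each window, a signal not scaled to depth, was only divided by the read count. How PCR copies and multiply matching reads were handled is not stated there, so reads may not be independent molecules.

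Samples were grouped by the labelled age and animal. Members and lists were chosen with earlier results of these data known. Counts were fitted in R 4.3.3 with edgeR 4.0.16 on windows with at least 1 CPM in 3 libraries, with TMM scaling, a block for the animal, age as the term and Benjamini-Hochberg adjustment over all windows. Gene sums used the same fit. The first window was fitted against the rest with offsets for length and library size, in genes with at least 30 counts. Calls needed an FDR below 0.1 and a 2-fold change. Standard errors are of log2 differences, and those of single animals use log2(CPM + 0.5). This CPM was scaled by TMM to the reads in the windows or genes tested, while the filter used CPM over all window reads. RPKM was taken over matched reads. limma 3.58.1 and DESeq2 1.42.0 served for alternatives, and the code was tested on simulated data. Python 3.11.15, numpy 2.4.6, pandas 2.3.3 and matplotlib 3.10.9 made summaries and figures. A label recurring over 1 Mb away was treated as another locus. 1 labelled window whose end precedes its start was left out of levels. 1 gene is counted in the totals but is not reported by name or shown in figures here.

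The same animals gave both ages, which pairs the libraries, and deviations from the age means correlated at 0.314, 0.573 and 0.711 within animals 1, 2 and 3. The age p-values weigh the difference between ages within animals against its spread over the 3 animals, with variance estimates that borrow from all windows or genes tested. Those of the first window weigh its gap to the rest against the spread over animals, with both ages summed. With 1 culture per animal and age, the spread between cultures of the same animal and age was not measured. Named were the 10 windows and genes of lowest p by age, the 10 highest and 5 lowest genes, the 10 highest windows, up to 10 genes called each way in the first window, and a list of known developmental members. Alternatives were other tests, scalings, filters and thresholds, no block, other summaries, a wider start, and leaving out each animal.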

Additional observations from a re-analysis of the deposited data

Results flagged for a closer look

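Family members outside the rule, on chromosome X or with a longer symbol, also had reads. FOXP3, the factor of regulatory T cells, stood at 0.285 RPKM over 2 windows and FOXO4 at 0.205 RPKM over 3 windows, both on chromosome X. FOXD4L1 on chromosome 8 was at 0.0582 RPKM in 1 window with 49 reads, and FOXR2 on chromosome X at 0.00499 RPKM with 5 reads. They were singled out because no comparison above counted them as members, and no control library without pulldown was analysed here.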

How the results depend on the processing

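Window calls by age were 0 under every alternative except leaving out 1 animal, where they ranged from 0 to 2 (2 without animal 3, where the series also rose to 1278 calls). Gene calls by age were 0 under all alternatives. Without animal 2, 4 of 31 member genes had an unadjusted p under 0.05 (edgeR), and the series rose to 272 calls. Without the animal as a block 0 windows were called, with 2 at an unadjusted p under 0.05, and first-window calls were 23 in place of 24. First-window calls ranged from 18 (limma) to 28 (no fold threshold), and from 20 to 23 with 1 animal left out. FOXD3, FOXI1, FOXJ3, FOXN1 and SOX5 were each lost in 1 alternative, FOXA2 and FOXI2 in 4, FOXN2 and SOX17 in 6 and SOX1 in 8. The median FOX window moved from 0.0861 to 0.140 RPKM over window reads, 0.334 as a mean and 0.151 over genes, and the SOX median from 0.0143 to 0.0232, 0.0649 and 0.0536. The share of member windows passing the filter was 33.4% at 0.5 CPM and 20.4% over matched reads. Leaving out an animal gave 0.0771 to 0.0919 and 0.0127 to 0.0152 RPKM and 24.8% to 25.6%. Depth limits the low genes, since 17 of 46 have no window that could be tested by age.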
